A study of Mus musculus with 6 samples.

Results

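Class-switched plasma cells are described here in lymph nodes of tumour-free and melanoma-bearing mice. A cell was chosen by its own transcript counts. It had to hold at least 5 UMIs (unique molecular identifiers, each standing for 1 captured transcript) of Jchain, at least 2 of Mzb1, none of the T cell gene Cd3e and none of the plasmacytoid dendritic cell gene Siglech. The summed UMIs of the 5 switched isotype genes Ighg1, Ighg2b, Ighg2c, Ighg3 and Igha had to reach at least those of Ighm. Cells with under 500 UMIs, under 300 genes or over 10% mitochondrial UMIs had been left out. The rule found 1607 cells among 28538 kept cells of 3 libraries, in a series of 53259 kept cells: 280 in the naive library, 903 in the YUMM1.7 library and 424 in the YUMMER1.7 library.

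The 3 libraries came from nodes labelled as de-enriched for CD45, the pan-leukocyte protein, and made with a 3′ single-cell kit. All mice were C57Bl/6. The naive arm was tumour-free, the YUMM1.7 arm carried that transplantable mouse melanoma, and the YUMMER1.7 arm carried its ultraviolet-irradiated, more mutated derivative. Each arm was 1 library that pooled nodes of several mice, so no test between arms was possible, and every interval printed for an arm covers counting error only. The sources used here state neither the age of the mice nor their number or the time after tumour injection. Despite the label, the libraries held many lymphocytes: 6380 cells in the naive, 2569 in the YUMM1.7 and 2011 in the YUMMER1.7 library were B cells by at least 2 Ms4a1 UMIs with under 2 of Jchain.

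Plasma cells are the antibody-secreting end stage of the B lineage. On the way there, B cells can replace the IgM constant region by a downstream one, a DNA recombination called class switching that sets the effector functions of the antibody. Blimp-1, encoded by Prdm1, and the unfolded protein response factor Xbp1 shut down B cell identity and enlarge the secretory machinery, and lymph nodes hold both young plasmablasts, which still divide, and germinal centres, where B cells switch and mutate their antibody genes. Jchain encodes the joining chain of IgM and IgA polymers, and Mzb1 a chaperone of the endoplasmic reticulum that plasma cells hold in large amounts.

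The IgG constant genes lie in a row on the minus strand of chromosome 12 (GRCm38, GENCODE vM21), and the isotypes are told apart by their sequence alone. From 5′ to 3′ the order is Ighm (113418558 to 113422730), Ighd, Ighg3 (113356224 to 113361232), Ighg1 (113325240 to 113330523), Ighg2b (113302965 to 113307933), Ighg2c (113285325 to 113288932), Ighe (113269260 to 113273248) and Igha (113254830 to 113260236). The hinge exon is shown because it is the coding stretch in which the 4 IgG genes differ most visibly and because its cysteines join the heavy chains. Each line gives exon 2 of the secreted transcript, and capitals mark the cysteine codons that lie in frame within the exon.
Ighg3, chr12:113360529-113360576, minus strand: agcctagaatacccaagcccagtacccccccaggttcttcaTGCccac
Ighg1, chr12:113329844-113329882, minus strand: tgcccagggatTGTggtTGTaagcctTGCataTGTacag
Ighg2b, chr12:113307261-113307326, minus strand: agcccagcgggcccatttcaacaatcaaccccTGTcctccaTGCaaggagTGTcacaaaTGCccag
Ighg2c, chr12:113288263-113288325, minus strand: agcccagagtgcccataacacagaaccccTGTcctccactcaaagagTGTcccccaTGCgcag
The Ighg1 hinge exon has 39 bases with 4 such codons, that of Ighg2b 66 bases with 4, that of Ighg2c 63 bases with 3 and that of Ighg3 48 bases with 1. Over the coding sequence, Ighg2b and Ighg2c were 86.3% identical. Of the 1065 windows of 50 bases in the secreted Ighg2b transcript, 56 also occurred in that of Ighg2c, and the longest shared run had 78 bases. A read lying wholly within such a run cannot be assigned by sequence, and the read length was not considered here. The other pairs of IgG genes were 76.1% to 78.7% identical and shared 0 such windows.

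Switched plasma cells made up a larger share of the library in both tumour arms than in the naive arm. They were 2.16% of kept cells in the naive library (95% Clopper-Pearson interval 1.91 to 2.42), 10.4% in the YUMM1.7 library (9.77 to 11.1) and 6.16% in the YUMMER1.7 library (5.61 to 6.76). The share was 4.82 times the naive one in YUMM1.7 (4.21 to 5.53) and 2.86 times in YUMMER1.7 (2.45 to 3.33). The 3 intervals did not overlap. The depletion acts on the denominator, and how far it differed between the libraries was not tested. Of all cells passing the rule without its isotype clause, switched cells were 88.1% in naive (280 of 318, interval 84.0 to 91.4), 95.7% in YUMM1.7 (903 of 944, 94.2 to 96.9) and 93.8% in YUMMER1.7 (424 of 452, 91.2 to 95.8). This share includes cells with few heavy chain UMIs. With 100 or more such UMIs, 176, 763 and 344 cells were switched and 11, 16 and 20 had Ighm above the switched sum. The same rule found 13 naive, 39 YUMM1.7 and 47 YUMMER1.7 cells in the matching libraries enriched for CD11-positive myeloid cells. They were 0.124%, 0.523% and 0.691% of kept cells there. YUMMER1.7 thus lay above YUMM1.7, unlike in the CD45-depleted libraries, with overlapping intervals (0.372 to 0.715 in YUMM1.7 and 0.508 to 0.918 in YUMMER1.7). Only 3, 14 and 14 of these cells had 100 or more switched isotype UMIs.

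The cells were deep. Their median total was 17746 UMIs in naive, 22209 in YUMM1.7 and 28646.5 in YUMMER1.7, against 4235, 4681 and 4886 over all kept cells of those libraries. Immunoglobulin genes took a median of 16.9%, 16.7% and 15.8% of a cell's UMIs. No barcode of a switched cell occurred in more than 1 of the 3 libraries, while 10 to 30 barcodes of kept cells were shared by each pair of libraries.

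Heavy chain transcript number varied widely among the cells, and only the naive library had a gap between low and high cells. The summed switched isotype UMIs per cell had a median of 584.5 in naive (range 1 to 3245), 713 in YUMM1.7 (2 to 4093) and 866.5 in YUMMER1.7 (3 to 7054). In naive, 104 of 280 cells (37.1%, interval 31.5 to 43.1) had under 100 such UMIs, 10 had 100 to under 300, 65 had 300 to under 1000 and 101 had 1000 or more. In YUMM1.7, 140 of 903 (15.5%, 13.2 to 18.0) had under 100, 81 had 100 to under 300, 400 had 300 to under 1000 and 282 had 1000 or more. In YUMMER1.7, 80 of 424 (18.9%, 15.3 to 22.9) had under 100, and the next bins held 24, 134 and 186. The division at 100 UMIs was chosen after these values had been seen, and the isotype shares, cycling shares and levels between arms are given for all switched cells and for the 176, 763 and 344 cells with 100 or more.

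**Figure D1:**
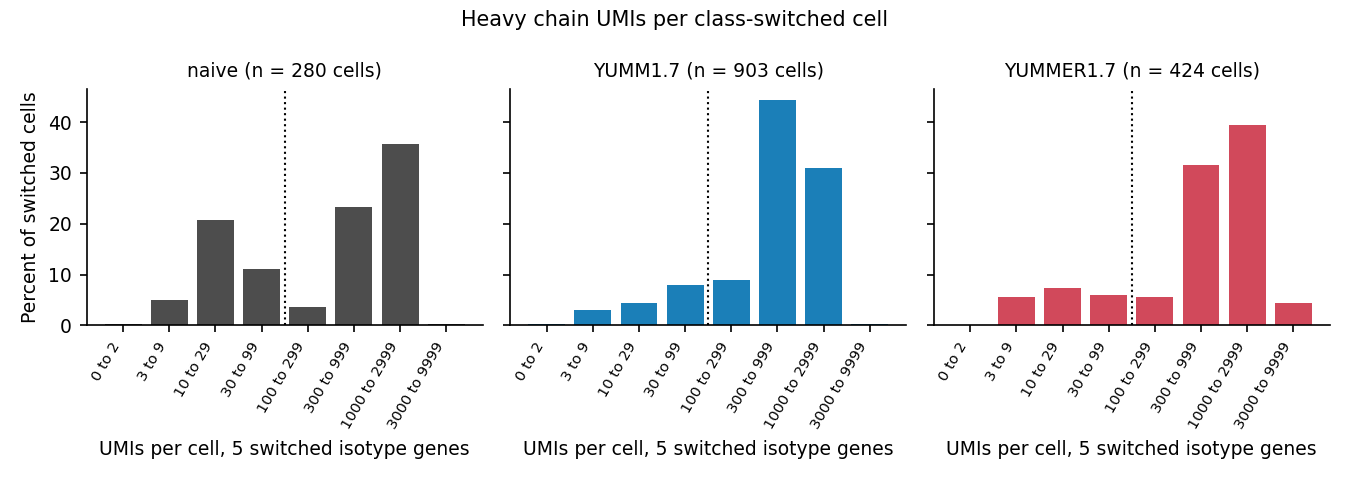
Percent of switched cells (y axis) by the summed UMIs of Ighg1, Ighg2b, Ighg2c, Ighg3 and Igha in the cell (x axis, uneven bins), with 1 panel per library. The dotted line marks 100 UMIs. The naive library has separate low and high groups, with 10 cells from 100 to under 300 between them, and its low group holds 37.1% of cells, against 15.5% and 18.9% in the tumour arms.

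Cells with under 100 switched isotype UMIs carried B cell and germinal centre transcripts, which goes against the name plasma cell for many of them, most clearly in naive. The levels that follow are CPM (counts scaled to a fixed total of UMIs outside the immunoglobulin genes), summed over the cells of a library, and they are a description, since the cells were grouped by their own counts. Xbp1 was at 87.4 CPM in the low cells of naive, 312 in those of YUMM1.7 and 384 in those of YUMMER1.7, against 1952, 1641 and 1552 in the cells with 100 or more. Prdm1 was at 11.9, 53.3 and 43.2 CPM in the low cells and at 155, 144 and 126 in the high cells. Sdc1, which encodes the plasma cell surface protein CD138, had a UMI in 2.88%, 15.7% and 16.2% of low cells and in 74.4%, 78.9% and 83.4% of high cells. All 3 plasma cell genes were thus lower in the low cells of every library, and lowest in the low cells of naive.

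B cell genes ran the other way. Ms4a1, which encodes CD20, had a UMI in 95.2% of low cells in naive, 74.3% in YUMM1.7 and 66.2% in YUMMER1.7, and in 48.3%, 45.6% and 46.5% of high cells, against 17.1%, 11.1% and 12% of T cells. Pax5, the factor that holds B cell identity, had a UMI in 92.3%, 62.9% and 58.8% of low cells and in 23.9%, 13.8% and 14.5% of high cells. Bcl6, the factor of germinal centre B cells, was at 208, 99.7 and 130 CPM in low cells and at 16.4, 4.56 and 7.69 in high cells. The summed level of the 7 B cell markers was 3042, 1804 and 2030 CPM in low cells, 868, 714 and 687 in high cells and 4581, 4744 and 4753 in B cells, in the same order of libraries.

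**Figure D2:**
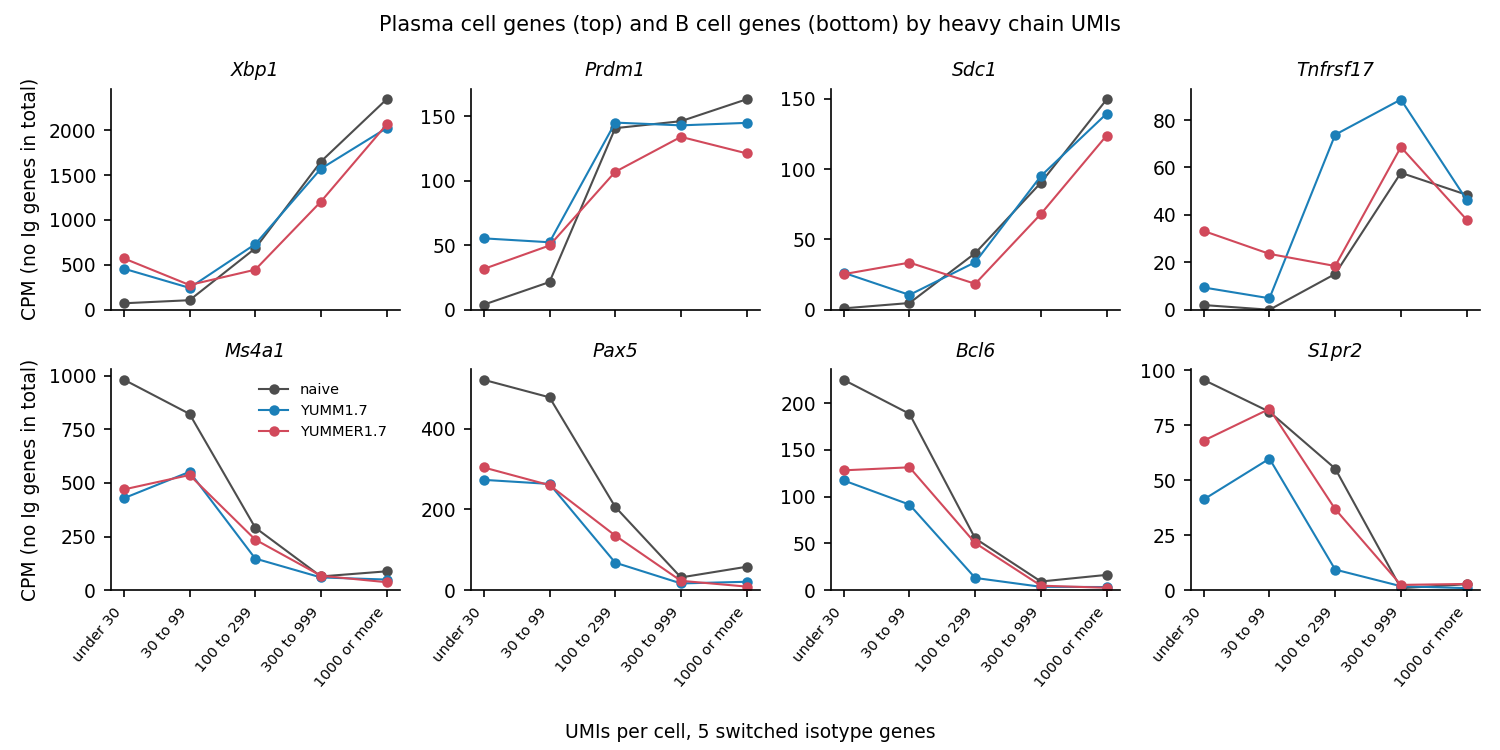
CPM (y axis, without immunoglobulin genes in the total) of 4 plasma cell genes (top) and 4 B cell genes (bottom) against the switched isotype UMIs of the cell (x axis, 5 bins), 1 point per library and bin. Xbp1 runs from 72.0 to 2345 CPM in naive, and S1pr2, which encodes a receptor that keeps B cells in the germinal centre, from 95.6 CPM in the lowest bin of naive to 2.73 in the highest. In the tumour arms Xbp1 does not rise steadily: it is at 458 CPM in the lowest bin and 244 in the next in YUMM1.7, and at 572 and 275 in YUMMER1.7. The 10 naive cells from 100 to under 300 UMIs have a median of 2429 UMIs outside the immunoglobulin genes and give the least sure points.

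The lowest sums were close to the free RNA of their library. T cells, taken as kept cells with at least 2 Cd3e UMIs and under 5 of Jchain, held 1.23 Ighg1 UMIs per 10000 UMIs in naive, 2.92 in YUMM1.7 and 2.07 in YUMMER1.7, against 302, 230 and 285 in switched plasma cells. An Ighg1 UMI was present in 62.1%, 90.8% and 93.6% of T cells (median 6975.5, 6576 and 13510 UMIs) and in 98.9%, 99.6% and 100% of switched cells, so the presence of a single UMI separates nothing here. At or below their library's T cell rate of the 5 summed genes lay 0 of 280, 14 of 903 and 3 of 424 switched cells. Just inside the Jchain limit, at 5 to 6 UMIs, were 23, 29 and 25 members with a median switched sum of 14, 9 and 8, and just outside, at 3 to 4 UMIs, were 15, 126 and 101 cells with a median of 9, 6 and 7. The YUMMER1.7 cells on both sides of that limit were shallow, with medians of 703 and 739 UMIs. Just inside the isotype clause, with 1 to 2 times as many switched as Ighm UMIs, were 12, 19 and 5 members.

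Ighg1 was the dominant isotype in every arm. It had the most UMIs among the 5 genes in 238 of 280 naive cells (85.0%, interval 80.3 to 89.0), 714 of 903 YUMM1.7 cells (79.1%, 76.3 to 81.7) and 378 of 424 YUMMER1.7 cells (89.2%, 85.8 to 91.9). The intervals of the tumour arms did not overlap, and the naive interval overlapped both. Among cells with 100 or more switched isotype UMIs the shares were 79.0% (72.2 to 84.7), 77.6% (74.5 to 80.5) and 87.5% (83.5 to 90.8), so naive then lay near YUMM1.7. Most cells expressed 1 isotype: the dominant gene held a median of 99.9%, 99.6% and 99.9% of a cell's switched UMIs.

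The IgG2 isotypes made up most of the rest. Ighg2b was dominant in 19 naive cells (6.79%, 4.13 to 10.4), 116 YUMM1.7 cells (12.8%, 10.7 to 15.2) and 28 YUMMER1.7 cells (6.60%, 4.43 to 9.4), so YUMM1.7 lay above both other arms with no overlap of intervals. At 100 or more UMIs the Ighg2b shares were 9.09% (5.29 to 14.3), 13.8% (11.4 to 16.4) and 7.27% (4.76 to 10.5), and the naive interval then overlapped that of YUMM1.7. Ighg2c was dominant in 20 (7.14%, 4.42 to 10.8), 69 (7.64%, 5.99 to 9.57) and 16 cells (3.77%, 2.17 to 6.06), with overlapping intervals for naive and each tumour arm. Ighg3 led in 2 cells of each library. Igha, given as a marker of these cells, led in 0 cells, which allows a share of up to 1.31% in naive, 0.408% in YUMM1.7 and 0.866% in YUMMER1.7 (upper Clopper-Pearson bounds), and in 0 cells of the CD11-enriched libraries as well. Its level in switched cells was 0.154, 0.129 and 0.127 UMIs per 10000, against 0.003, 0.003 and 0.009 in T cells.

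**Figure D3:**
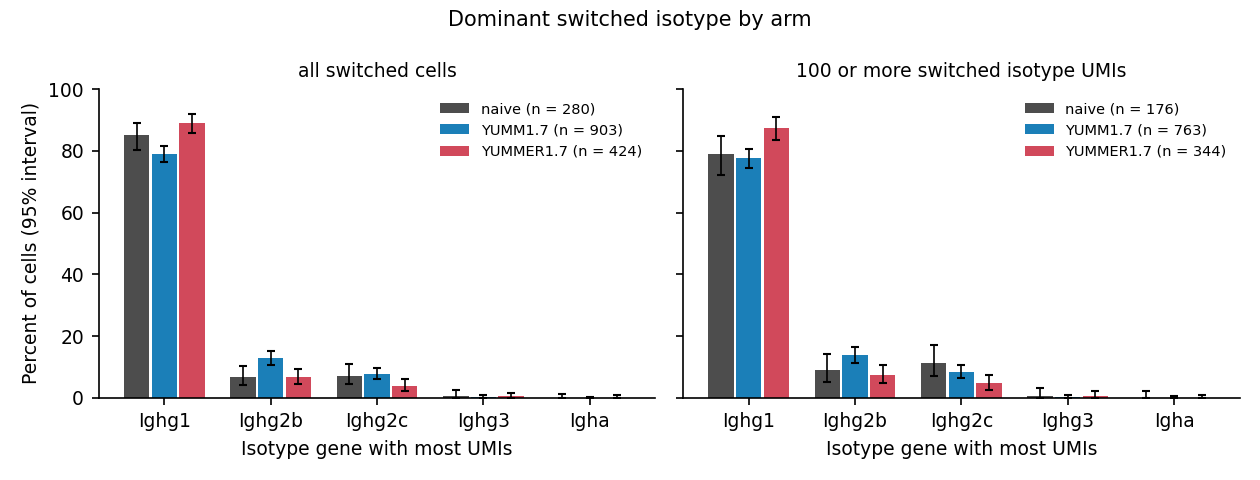
Percent of switched cells (y axis) whose leading isotype gene was Ighg1, Ighg2b, Ighg2c, Ighg3 or Igha (x axis), by arm, for all switched cells (left) and those with 100 or more switched isotype UMIs (right). Bars show the share in 1 library and whiskers its 95% Clopper-Pearson interval. Ighg1 leads in 77.6% to 89.2% of cells and Igha in none.

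IgE, the isotype of mast cell activation, is not among the 5 genes of the rule, yet a few members carried it, which was noticed after the values had been seen. Ighe UMIs exceeded the summed 5 genes in 0 of 280 naive cells (upper bound 1.31%), 4 of 903 YUMM1.7 cells (0.443%, interval 0.121 to 1.13) and 4 of 424 YUMMER1.7 cells (0.943%, 0.258 to 2.40). The intervals overlap. These cells held 42 to 664 Ighe UMIs in YUMM1.7 (median 206) and 56 to 901 in YUMMER1.7 (median 411.5), with median switched sums of 53.5 and 52.5. They had 38.9% and 67.8% of all Ighe UMIs of the switched cells in their libraries, while 2.25% and 1.77% of T cells had an Ighe UMI. Their Xbp1 level was 904 and 1001 CPM, against 274 and 311 in the other cells with under 100 switched isotype UMIs.

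Light chains were mostly kappa. The summed Iglc genes exceeded Igkc in 5.0% of naive cells (2.76 to 8.25), 3.21% of YUMM1.7 cells (2.16 to 4.58) and 4.01% of YUMMER1.7 cells (2.35 to 6.34), with overlapping intervals.

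The most frequent combination of heavy and kappa variable genes differed among the 3 libraries. These 3′ libraries showed a variable gene in only part of the cells. A heavy variable gene with at least 3 UMIs was seen in 60%, 83.9% and 79.5% of naive, YUMM1.7 and YUMMER1.7 cells. The most frequent was Ighv1-72 in naive (20 of 168 cells, 11.9%, 7.43 to 17.8), Ighv1-82 in YUMM1.7 (66 of 758, 8.71%, 6.80 to 10.9) and Ighv1-64 in YUMMER1.7 (26 of 337, 7.72%, 5.10 to 11.1). With at least 10 UMIs of both chains, the leading pair in naive was Ighv1-72 with Igkv3-7, in 10 of 124 cells, of which 7 were Ighg1, 1 Ighg2b and 2 Ighg2c. In YUMM1.7 the pair Ighv1-5 with Igkv6-15 was in 15 of 528 cells, 14 of them Ighg1, whereas Ighv1-82 with Igkv1-117 was in 14 cells, of which 9 were Ighg2b, 4 Ighg2c and 1 Ighg1. In YUMMER1.7 the leading pair was Ighv1-64 with Igkv16-104, in 7 of 243 cells, all Ighg1. The pair Ighv1-85 with Igkv12-44 was frequent in both tumour arms, with 11 cells in YUMM1.7 and 5 in YUMMER1.7, all Ighg1. Pairs present in 3 or more cells numbered 6, 50 and 13. Naive shared 0 of them with either tumour arm, and YUMM1.7 and YUMMER1.7 shared 2, of which Ighv1-85 with Igkv12-44 is 1. A shared gene pair is not a shared clone, since no junction was read, and the number of cells sets how many pairs can be seen.

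A large part of the switched cells was dividing. Each cell was thinned to 2000 UMIs outside the immunoglobulin genes, and a cell counted as cycling with at least 2 UMIs over Mki67, Top2a, Birc5, Cdk1, Ube2c, Ccnb1, Ccnb2 and Tpx2. The share was 40.1% in naive (109 of 272, interval 34.2 to 46.2), 50.1% in YUMM1.7 (441 of 881, 46.7 to 53.4) and 54.2% in YUMMER1.7 (215 of 397, 49.1 to 59.1), against 1.29%, 1.73% and 2.44% of B cells treated the same way. Without thinning it was 61.8%, 71.8% and 73.1%. Among cells with 100 or more switched isotype UMIs it was 30.8% (24 to 38.3), 48.7% (45.1 to 52.4) and 52.8% (47.3 to 58.2), so naive lay below both tumour arms. Among cells with under 100 it was 58.0%, 59.0% and 64.3%, and 24 of the 80 such YUMMER1.7 cells were too shallow to enter.

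Over all switched cells, B cell and germinal centre genes were lower in both tumour arms than in naive, and among cells with 100 or more switched isotype UMIs less so. In the 3 pairs of libraries a gene counted as different at a 2-fold ratio of CPM with at least 50 UMIs in the higher library. YUMM1.7 was higher than naive in 660 of 9829 genes (6.71%) and lower in 300 (3.05%). YUMMER1.7 was higher than naive in 441 of 9170 (4.81%) and lower in 366 (3.99%), and higher than YUMM1.7 in 81 of 10917 (0.742%) and lower in 140 (1.28%). For the gene lists the minimum was 10 UMIs over both libraries, with which 10.3% of all genes were 2-fold higher and 6.55% lower in YUMM1.7 than in naive, and 9.21% higher and 8.05% lower in YUMMER1.7. Against these shares, 9 of 13 measured germinal centre genes were 2-fold lower in YUMM1.7 and 10 of 13 in YUMMER1.7, with list medians of -1.45 and -1.24 on the log2 scale beside medians of -0.05 and -0.09 over all genes. Of 23 mature B cell genes, 11 and 14 were 2-fold lower, with medians of -0.95 and -1.15. None of either list was 2-fold higher. In the high cells, 4.41% of all genes were 2-fold lower in YUMM1.7 and 4.87% in YUMMER1.7. There, 3 and 2 of the 13 germinal centre genes were lower and 0 and 2 higher, with medians of -0.52 and -0.11. Of the 23 mature B cell genes, 5 and 6 were lower and none higher, with medians of -0.52 and -0.47. The 7 B cell markers summed to 1745, 911 and 895 CPM over all switched cells, against the 868, 714 and 687 given above for the high cells.

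The single genes that follow led the ranking, over all genes, of those lower in both tumour arms among all switched cells. Being chosen by that difference, they cannot show how far the lists followed the low cells. Bach2, a repressor of plasma cell fate, was at 1026 CPM in naive, 187 in YUMM1.7 and 237 in YUMMER1.7, a log2 difference of -2.46 (interval -2.52 to -2.39) and -2.12 (-2.19 to -2.05). In cells with 100 or more switched isotype UMIs it was at 113, 70.6 and 69.2 CPM, and the differences were -0.68 and -0.71. Sox5, Mybl1, H1fx and Lpp were likewise lower in both tumour arms over all switched cells, by 1.93 to 2.87 on the log2 scale. In the high cells the interval of none of them lay below 0. Sox5 was there at 0.365, 6.55 and 16.0 CPM, so its ratios to naive rest on a level close to 0.

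Among cells with 100 or more switched isotype UMIs, naive cells were higher in interferon-stimulated genes. There, YUMM1.7 was 2-fold higher than naive in 424 of 8344 genes (5.08%) and lower in 54 (0.647%), and YUMMER1.7 higher in 430 of 7995 (5.38%) and lower in 111 (1.39%). With the list minimum, 7.75% of all genes were higher and 4.41% lower in YUMM1.7, and 9.63% higher and 4.87% lower in YUMMER1.7. Of 29 measured type I interferon genes, 11 were 2-fold lower in YUMM1.7 and 5 in YUMMER1.7, with none higher and medians of -0.66 and -0.54 beside -0.03 and -0.01 over all genes. Isg15, a ubiquitin-like interferon-induced protein (chromosome 4, 156199424 to 156200818), was at 165 CPM in naive, 50.3 in YUMM1.7 and 58.7 in YUMMER1.7, a log2 difference of -1.72 (-1.89 to -1.55) and -1.5 (-1.68 to -1.31). In the other kept cells naive was lowest, at 41.7, 64.0 and 99.6 CPM. Bst2, which encodes the virus-tethering protein tetherin, was at 787, 404 and 428 CPM, and the nucleic acid sensor gene Zbp1 at 252, 118 and 133. Ly6e, another interferon-stimulated gene, was at 651, 765 and 738 CPM and so was slightly higher in the tumour arms. Over all switched cells, 5 of 29 genes of this list were lower and 2 higher in YUMM1.7, and 3 were lower and 3 higher in YUMMER1.7.

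Slpi, a secreted inhibitor of leukocyte proteases (chromosome 2, 164354070 to 164389095), was highest in the high cells of naive. Its level was 32389 CPM in naive, 16187 in YUMM1.7 and 17488 in YUMMER1.7, a log2 difference of -1.0 (-1.01 to -0.99) and -0.89 (-0.90 to -0.88). The other kept cells held 190, 553 and 311 CPM. Oosp1, Trib1, Evi5 and Cped1 were also lower in both tumour arms, by 1.11 to 2.04 on the log2 scale. Ly6c2, a surface antigen of the Ly6 family, was at 1595, 916 and 774 CPM. The immediate early genes Fos (613, 293 and 364 CPM) and Jun (1248, 682 and 734 CPM) were highest in naive as well, and genes of this kind also respond to tissue dissociation, whose part was not tested.

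Genes higher in both tumour arms included a sodium pump subunit, a chemokine receptor and histone genes. Atp1b1, the beta subunit of the sodium and potassium pump (chromosome 1, 164437109 to 164458355), was at 21.2 CPM in naive, 89.8 in YUMM1.7 and 78.6 in YUMMER1.7 in the high cells, a log2 difference of 2.08 (1.7 to 2.49) and 1.89 (1.5 to 2.30). Over all switched cells it was at 13.9, 78.3 and 70.6, and in the other kept cells at 46.5, 53.3 and 40.0. Ccr10, a receptor for the chemokines Ccl27 and Ccl28 found on antibody-secreting cells, was at 24.5, 54.0 and 53.1 CPM, a log2 difference of 1.14 (0.78 to 1.52) and 1.12 (0.75 to 1.51). Crip1, a small zinc-binding protein gene, was at 255, 586 and 548 CPM, and the other kept cells were likewise lowest in naive, at 421, 848 and 878. Klf2, a transcription factor of lymphocyte quiescence and trafficking, was at 191, 318 and 345 CPM, and Sec61g, a subunit of the translocation channel, at 467, 775 and 705. For Sec61g the other kept cells were likewise lowest in naive, at 92.4, 167 and 182 CPM. For Klf2 they were highest in naive, at 436, 353 and 316. The mitotic phosphatase gene Cdc25b (28.5, 61.1 and 62.4 CPM) and the histone genes Hist1h2ae and Hist1h3f were higher too.

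**Figure D4:**
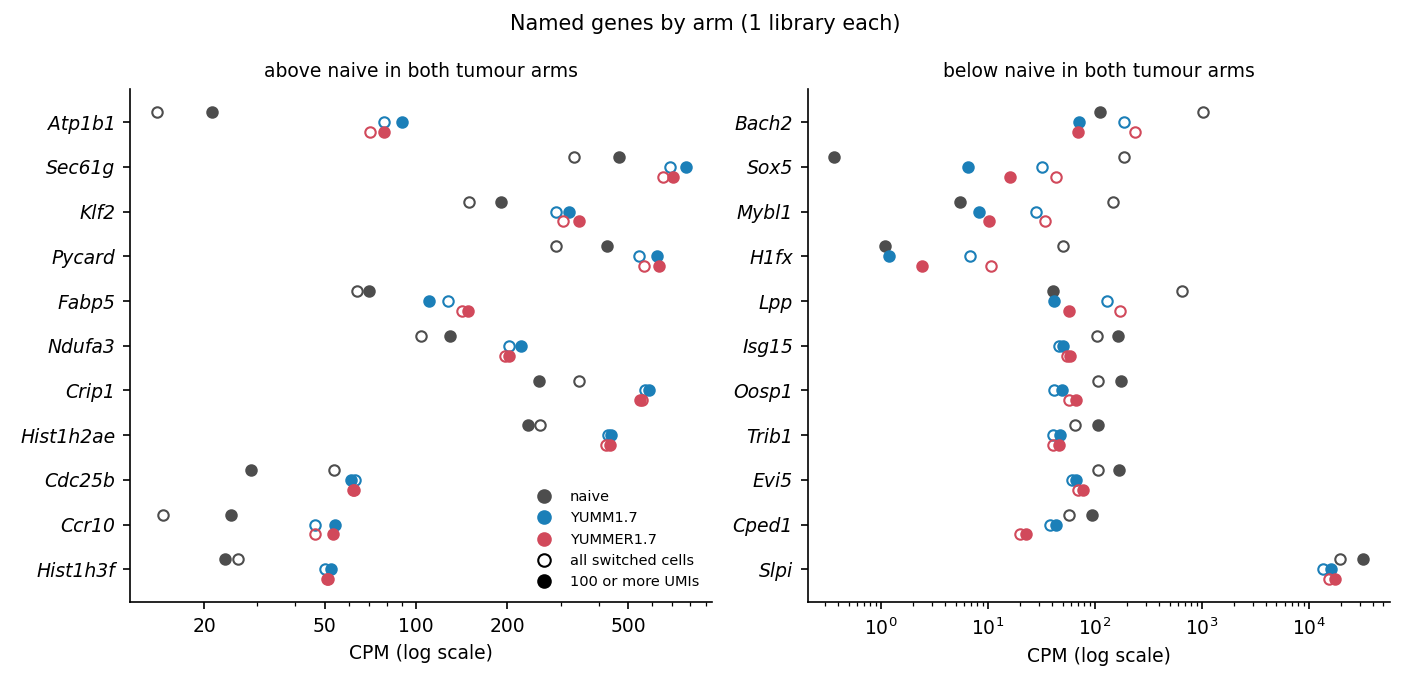
CPM (x axis, log scale) of genes above naive (left) and below naive (right) in both tumour arms, coloured by arm. Open circles show all switched cells and filled circles those with 100 or more switched isotype UMIs, 1 library per arm. Sox5, Mybl1, H1fx and Lpp are highest in naive as open circles and not as filled ones, while Bach2, Isg15 and Slpi are highest in naive as both.

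Lists of the secretory and dividing cell showed small differences. In the high cells, 26 proliferation genes had medians of 0.44 in YUMM1.7 and 0.55 in YUMMER1.7 against naive, with 0 and 2 genes 2-fold higher, and Mki67 was at 380, 514 and 560 CPM. The 23 genes of oxidative phosphorylation had medians of 0.26 and 0.31 with none past 2-fold. The 30 genes of secretory translocation and traffic had medians of 0.07 and -0.06 with none past 2-fold, and the 11 plasma cell transcription factors had -0.18 and -0.35. Over all switched cells the secretory list stood at 0.42 and 0.37.

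YUMMER1.7 differed from YUMM1.7 in fewer genes. In the high cells, 174 of 10079 genes were 2-fold higher (1.73%) and 80 lower (0.794%). Socs2, a feedback inhibitor of cytokine signalling, was at 67.1 CPM in YUMMER1.7 against 35.9 in YUMM1.7 and 36.9 in naive. The nucleolar genes Npm1 (1357 against 852) and Ncl (1007 against 676) and Ldha, the last enzyme of glycolysis (316 against 205), were higher in YUMMER1.7. Mt1, a metallothionein gene, was at 79.0 against 39.0 CPM, with 177 against 61.8 in the other kept cells. Fut8, the enzyme that adds core fucose to IgG, was lower in YUMMER1.7, at 547 CPM against 896 in YUMM1.7 and 1179 in naive, a log2 difference to YUMM1.7 of -0.71 (-0.76 to -0.67). Cacna1e, a calcium channel gene, was at 340, 552 and 629 CPM, and Cd93, a gene needed for plasma cell maintenance in bone marrow, at 36.6, 64.6 and 62.5. Gpr155, Tmem163 and Tsc22d3 were lower as well. Several of these genes were also lower in the other kept cells of YUMMER1.7 than in those of YUMM1.7. This held for Tsc22d3 (71.5 against 121 CPM), Tmem163 (152 against 228), Cacna1e (82.7 against 116), Fut8 (103 against 121) and Gpr155 (11.0 against 13.7). Cd93 went the other way there (44.6 against 24.3).

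Transcripts of other cell types found in the switched cells differed between the arms. The 10 stromal and endothelial markers summed to 126 CPM in the high cells of naive, 235 in YUMM1.7 and 374 in YUMMER1.7, with 4 of 10 at 0 in naive and none at 0 in the tumour arms, and to 328, 2261 and 4136 CPM in the other kept cells. The low cells held 161, 782 and 905. The 7 T cell markers summed to 35.1, 10.6 and 4.95 CPM in the high cells, with Cd3e at 0 by the rule. The part of these transcripts in the differences between arms was not tested.

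Switched cells and IgM-dominant plasma cells of the same libraries differed in genes that included secretory and B cell genes. The IgM-dominant cells passed the same rule with Ighm above the 5 switched genes and numbered 38, 41 and 28. UMIs were summed per library and class, without immunoglobulin genes and the genes of the rule, and tested by edgeR's quasi-likelihood test with the library as a block, which makes the 3 libraries the replicates of the class difference. At a Benjamini-Hochberg adjusted p under 0.05, 294 of 11187 genes rose (2.63%) and 120 fell (1.07%) in switched cells. The median over all genes tested was 0.01 on the log2 scale. These calls rest on the naive library in particular: without it 1 gene rose and 1 fell, against 286 and 150 without YUMM1.7 and 466 and 172 without YUMMER1.7, and all 413 calls tested without it kept their direction. The spread between the 3 libraries includes any difference of the class effect between arms. When both classes were limited to cells with 100 or more heavy chain UMIs (Ighm for the 11, 16 and 20 IgM-dominant cells), 218 of 9691 genes rose (2.25%) and 151 fell (1.56%).

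Slpi had the clearest rise. It was at 19923 against 1216 CPM in switched and IgM-dominant cells of naive, 13881 against 580 in YUMM1.7 and 15860 against 690 in YUMMER1.7, a log2 difference of 4.43 (SE 0.13, edgeR adjusted p 1.7e-06, and 0.0067 at most over 8 alternatives). Ern1, which encodes the stress sensor IRE1 that splices Xbp1, rose by 1.62 (SE 0.14). Cd274, which encodes the inhibitory ligand PD-L1, was at 229 against 37.6, 168 against 46.9 and 193 against 68.5 CPM. Zfyve28, Sfn, Clu, Cxcl9 and Ccl20 were the other leading genes that rose, and Cxcl9 had 0 UMIs in both classes of naive. Clu, Cxcl9, Ccl20 and Vcam1 are also made by stromal cells, whose markers summed to 140, 334 and 456 CPM in switched and 101, 125 and 312 in IgM-dominant cells, and their part was not tested.

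Parts of the secretory pathway and plasma cell maturation lists rose in switched cells. Of 30 secretory translocation and traffic genes, 14 rose and none fell (median 0.69), among them Ssr4, a translocon-associated subunit, at 1.42. Of 29 unfolded protein response and chaperone genes, 9 rose and none fell (median 0.58), among them Edem1, Dnajb9 and Hsp90b1. Of the 11 genes listed as plasma cell transcription factors, 6 rose: Fos, Jun, Bhlha15, Xbp1, Irf4 and Ell2. Fos and Jun are immediate early genes and count again in the dissociation list below, whose median was 0.76. Prdm1, at 99.3 against 67.4, 130 against 46.9 and 115 against 109 CPM, did not pass (adjusted p 0.152 by edgeR). Of 17 maturation surface genes, 6 rose, including Cd93 (2.04), Ly6c2 (1.92) and Sdc1 (1.32). Of 21 homing genes, 4 rose: Klf2 (1.87), Ccr10 (2.16), Itgb7 (1.87), a chain of gut-homing integrins, and the adhesion gene Vcam1 (2.03). Of 20 dissociation and heat shock genes, 8 rose, including Fos, Jun and Hspa1a. With 100 or more heavy chain UMIs per cell, 9 of 30 secretory genes (median 0.51), 5 of 28 unfolded protein response genes (0.41) and 5 of 11 transcription factors (0.62) rose, and none of these lists had a gene that fell. Of 17 maturation genes 5 rose and 2 fell, of 21 homing genes 3 rose and 1 fell, and of 20 dissociation genes 9 rose.

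Genes that fell in switched cells included B cell genes. Of 23 mature B cell genes, 8 fell and none rose (median -0.69), and among cells with 100 or more heavy chain UMIs 12 fell and none rose (median -0.84). Ms4a1 was at 432 against 740 CPM in naive, 149 against 375 in YUMM1.7 and 138 against 262 in YUMMER1.7, a log2 difference of -0.96 (SE 0.14, edgeR adjusted p 0.0118). Fcmr, the receptor for IgM, fell by 2.01, the scavenger receptor gene Cd36 by 3.59 and the Fc receptor-like gene Fcrl5 by 3.01 on the log2 scale. The survival gene Bcl2 fell by 1.52. Of 13 germinal centre and 26 proliferation genes none passed. In the subset with 100 or more heavy chain UMIs, 1 of 12 germinal centre genes rose and 1 fell, and no proliferation gene passed. Cycling cells were 60.5% (43.4 to 76.0), 52.5% (36.1 to 68.5) and 60% (38.7 to 78.9) of thinned IgM-dominant cells. The 5 innate lymphocyte markers summed to 279 CPM in the IgM-dominant cells of YUMM1.7, against 11.5 and 3.27 in those of naive and YUMMER1.7, and their part was not tested.

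**Figure D5:**
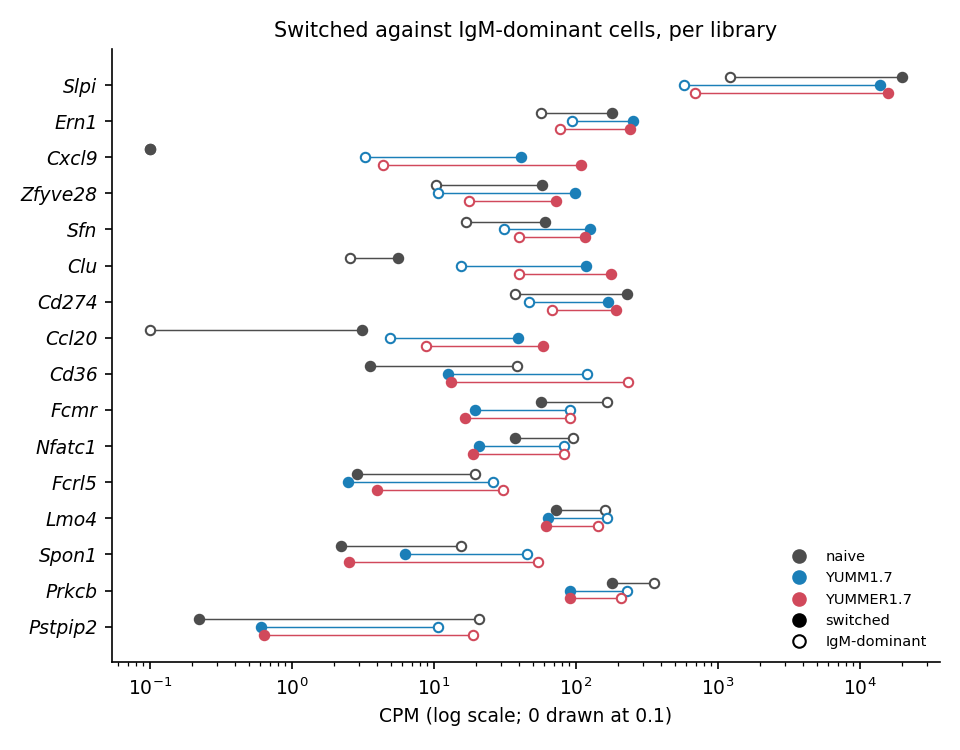
CPM (x axis, log scale, 0 drawn at 0.1) of the 8 leading genes in each direction in switched (filled) and IgM-dominant (open) plasma cells, with 1 line per library. Slpi is highest, at 13881 to 19923 CPM in switched cells against 580 to 1216 in IgM-dominant ones, and for Cxcl9 both naive points lie at 0.

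Genes lower in cells led by Ighg2b or Ighg2c than in cells led by Ighg1 included B cell genes, of which none passed among cells rich in heavy chain transcripts. The IgG2 sums held 39, 185 and 44 cells and the Ighg1 sums 238, 714 and 378. By the same edgeR test, 37 of 11685 genes rose (0.317%) and 144 fell (1.23%) in IgG2 cells. Of 13 germinal centre genes 8 fell, and of 23 mature B cell genes 12 fell, with medians of -0.93 and -0.74 beside -0.01 over all genes. Bach2 was at 374 against 1165 CPM in naive, 72.7 against 213 in YUMM1.7 and 65.8 against 265 in YUMMER1.7, a log2 difference of -1.65 (SE 0.12). The leading genes that fell also included Clu (-2.23), Cxcl9 (-3.64), Ccl20 (-2.80) and Cxcl13 (-1.92). Cxcl9 and Cxcl13 fell in the tumour libraries only. In naive, Cxcl9 was at 0 CPM in both classes and Cxcl13 at 1.48 in IgG2 against 0.53 in Ighg1 cells. Cxcl13 was at 48.3 against 176 CPM in YUMM1.7 and 54.1 against 233 in YUMMER1.7. Clu, Cxcl9 and Ccl20 are, as said above, also made by stromal cells, and the part of stromal transcripts was not tested. Of cells with under 100 switched isotype UMIs, 3, 16 and 3 were IgG2 and 99, 122 and 77 were Ighg1. Among cells with 100 or more, only 1 of 10453 genes rose (0.00957%) and none fell (296 and 271 at an unadjusted p under 0.05). None of the genes in either list passed there, with list medians of -0.35 (germinal centre) and -0.24 (mature B cell). The difference of Bach2 was -0.20. Tox and Parm1, also leading genes that fell, did not pass but stayed at -1.93 and -2.08, from -2.26 and -2.88 over all cells. The other leading genes that fell lay between -1.23 (Cxcl13) and 0.11 (Cxcl9) in this subset.

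Cxcr3, the receptor for the interferon-induced chemokines Cxcl9 and Cxcl10, was the leading gene that rose in IgG2 cells. It was at 56.2 against 14.1 CPM in naive, 41.9 against 18.4 in YUMM1.7 and 50.9 against 12.8 in YUMMER1.7, higher in IgG2 cells of each library, a log2 difference of 1.7 (SE 0.21, edgeR adjusted p 0.0038). Among cells with 100 or more switched isotype UMIs the difference was 1.39 and did not pass (adjusted p 0.168). Ly6a, Sfn, Cd34, Plac8, Glipr1 and Ankrd55 also rose over all cells and did not pass in that subset. Mcpt4, a mast cell protease gene, was the 1 gene that passed there, and its level was 123 against 15.6 CPM in YUMM1.7 but 1.48 against 1.86 and 3.92 against 1.96 in naive and YUMMER1.7. Without the YUMM1.7 library, 5 genes rose and 42 fell over all cells, without naive 21 and 77, and without YUMMER1.7 149 and 215. IgA could not be compared with IgG, since no cell was led by Igha.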

How the data were processed

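Single-cell 3′ RNA libraries (Chromium GEM-X v4, per the labels' protocols) were deposited by the authors as sparse tables of raw UMI counts. Per the submitters' processing notes they were made with Cell Ranger 8.0.1 on mm10, but the file headers name version 7.0.0 for the 3 CD45-depleted libraries and 8.0.1 for the CD11-enriched ones. The headers of the CD45-depleted matrices list 54752 genes and those of the CD11-enriched matrices 32285, so the fractions were processed against different gene sets and are set side by side only. How cells were called and how reads that match several genes were counted is not given in the sources used here. The labels call the 3 libraries de-enriched for CD45, while the protocol speaks of a positive selection of stromal cells with CD45 beads. The 3 libraries held 13821, 9897 and 7500 barcodes and 78240566, 76861915 and 67709285 UMIs.

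The members and gene lists were chosen with earlier results of these data known. Levels between arms are CPM of UMIs summed over cells, scaled to the total outside the 395 immunoglobulin genes, and log2 ratios carry exact conditional binomial intervals. Differences between cell classes were tested with edgeR 4.0.16 (quasi-likelihood, filterByExpr, TMM, library as a block, Benjamini-Hochberg adjustment) in R 4.3.3, with DESeq2 1.42.0 as an alternative. The CPM beside these fits are scaled to a total without the rule's genes, and their SE is the log2 difference divided by the square root of the F statistic, an approximation. Intervals of shares are 95% Clopper-Pearson intervals. On simulated data with 200 changed genes, the fit of switched against IgM-dominant cells recovered 76% of 2-fold and 98% of 4-fold changes with 2.79% false calls. The fit of IgG2 against Ighg1 cells gave 81%, 100% and 1.63%. The simulation used 1 fixed dispersion for all genes and the same mean levels in every arm, and it changed only genes of higher count. Its false call shares therefore do not cover differences of the class effect between arms.

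Named genes were the 6 per direction with both tumour arms on one side of naive and the 6 per direction between tumour arms, ranked by the interval bound nearest 0, if the higher library had 50 or more UMIs, 50 or more CPM and at least 0.5 times the CPM of other kept cells. For each fit they were the 8 per direction with the smallest p among those that passed, and from each list up to 4 members with the most UMIs and up to 4 with the largest bound. The same rule was applied to cells with 100 or more switched isotype UMIs, and single genes named beyond it, with Ighe, were chosen after their values had been seen. Some genes that met the rule are not reported here. Of sex-linked genes the rule left out Y-linked genes, Xist and Tsix and kept other X-linked genes, such as Tsc22d3. No ribosomal, mitochondrial, haemoglobin, T cell receptor or immunoglobulin gene was named by it. Doublets were not removed; Scrublet scores above the 95th percentile were left out as an alternative. Other alternatives were stricter markers, isotype clause and cell filter, thinning, other totals and UMI minimums, and fits without filter, block or 1 library. Hinge exons and coordinates were read from the GENCODE vM21 annotation and transcripts on GRCm38, the assembly that mm10 names.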

Additional observations from a re-analysis of the deposited data

How the results depend on the processing

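Ighg1 led in every arm under each alternative. In the CD45-depleted libraries the order of the arms in the share of kept cells (YUMM1.7, YUMMER1.7, naive) did not change. In naive, YUMM1.7 and YUMMER1.7 that share was 1.80%, 9.70% and 5.58% with at least 10 Jchain and 5 Mzb1 UMIs, and 1.36%, 8.79% and 5.0% for cells with 100 or more switched isotype UMIs, an alternative added after the data had been seen. It was 1.5% in naive after thinning to 2000 UMIs, and 11.5% and 8.26% in YUMM1.7 and YUMMER1.7 with at least 1000 UMIs and at most 5% mitochondrial UMIs. Of all plasma cells, switched cells were 83.6% and 92.9% in naive and YUMM1.7 where 3 times the Ighm UMIs were asked for, 95.3%, 98.3% and 96.2% after thinning, and 97.2% in YUMM1.7 with the stricter markers. Ighg1 in naive was 79.0% at 100 or more UMIs and 77.9% after thinning. Cycling cells were 33.5%, 43.7% and 47.1% with at least 3 UMIs, 61.8%, 71.8% and 73.1% without thinning, and 30.8% in naive at 100 or more UMIs.

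Counts of 2-fold genes moved with the settings. With at least 20 UMIs they were 1221 higher and 483 lower in YUMM1.7 against naive, 899 and 607 in YUMMER1.7 against naive, and 209 and 422 in YUMMER1.7 against YUMM1.7; after thinning to 1000 UMIs they were 66 and 33, 29 and 47, and 3 and 32. At 100 or more switched isotype UMIs they were 424 and 54 in YUMM1.7 against naive, 111 lower in YUMMER1.7 against naive, and 174 and 80 between the tumour arms. With cells weighted equally they were 298 and 212 between the tumour arms. At 100 or more UMIs the log2 differences to naive reversed for Sox5 (4.16, interval 1.65 to 9.48, in YUMM1.7 and 5.45, 2.95 to 10.8, in YUMMER1.7). They also reversed for Mybl1 (0.59 and 0.91), H1fx (0.12 and 1.14) and Lpp (0.04 and 0.50). The intervals span 0 for Mybl1, H1fx and Lpp in YUMM1.7 and for H1fx in YUMMER1.7. The subset leaves out the low cells, which in naive held 466, 356, 123 and 1578 CPM of Sox5, Mybl1, H1fx and Lpp. Why the differences reversed was not tested. Apart from that subset, 163 of 204 values of named genes and 271 of 288 list medians between arms stayed within their interval or range. Of the rest, 41 and 17 moved, and none reversed. Part of this was fixed beforehand: the lower UMI minimum left the ratio of each named gene as it was. Other totals and recentring on the median gene shifted all genes of a comparison by the same small amount.

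In the fit of switched against IgM-dominant cells, 959 genes rose and 323 fell without a filter on low counts, and 73 fell with immunoglobulin genes kept. Over the fits that leave out 1 library, 1 to 466 rose and 1 to 172 fell. DESeq2 called 287 and 157 and shared 337 of the 414 calls. In the fit of IgG2 against Ighg1 cells, 242 rose and 512 fell without a filter, 11 and 69 with immunoglobulin genes kept, and 1 and 0 at 100 or more UMIs, where Cxcl9 reversed to 0.11. DESeq2 called 111 that rose. Over the fits that leave out 1 library, 5 to 149 rose and 42 to 215 fell. Both classes of a library come from the same nodes and are paired by it. With no replicate block, 13 rose and 4 fell in the first fit, and 0 and 0 in the second (411 and 493 at an unadjusted p under 0.05 by edgeR). The cause of each of these changes was not tested. The fit of IgA against IgG cells was not run, since no cell was led by Igha.

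Each arm is 1 pooled library, so the intervals do not cover the spread between mice. The naive sums hold 280 cells, and genes of low count there have wide intervals. Free heavy chain transcripts reach most cells, so isotype calls of cells with few such UMIs are the least sure. Reads of Ighg2b and Ighg2c that lie wholly within a stretch shared by both cannot be told apart.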
